A study of Mus musculus with 6 samples.

Results

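The D-type cyclins, their kinase partners and the genes that take a cell out of the division cycle were followed in sorted embryonic cells. The cells came from control and conditional Dnmt1 knockout (Dnmt1 KO) embryos. The set held 10 genes, chosen by symbol from 57132 listed genes: the cyclins Ccnd1, Ccnd2 and Ccnd3, the kinases Cdk4 and Cdk6, the inhibitors Cdkn1b, Cdkn2c and Cdkn2d, the retinoblastoma gene Rb1, and Btg2. Cells carrying the tdTomato reporter were sorted by fluorescence from mouse cortex at E14.5 (days of embryonic development), and their total RNA was sequenced with 3 libraries per genotype. Control cells came from Sst-Cre/tdTomato embryos and Dnmt1 KO cells from Sst-Cre/tdTomato/Dnmt1 loxP2 embryos. Both groups carried the Cre driver and the reporter, and only the Dnmt1 KO group carried the floxed Dnmt1 alleles. The study describes a separate cross for each group, so genotype cannot be told apart from line and litter. Cre was driven from the somatostatin gene Sst, on a C57BL/6J background. The reporter marked cells that had expressed Sst or descended from such cells. Each library was processed on its own from cells of pooled embryos, and whether the pools shared embryos is not stated, so the p-values describe how far these libraries vary and not how far single embryos do.

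D-type cyclins are the part of the cell cycle engine that responds to growth signals. Bound to Cdk4 or Cdk6, they phosphorylate the retinoblastoma protein, which frees E2F transcription factors to switch on the genes of S phase. The INK4 inhibitors, among them the products of Cdkn2c and Cdkn2d, bind the kinases, while p27, the product of Cdkn1b, acts on cyclin and kinase complexes. In the embryonic mouse forebrain, Ccnd1 and Ccnd2 are expressed in dividing progenitors, and p27 and p19 (Cdkn2d) help to keep neurons from dividing again. In interneurons p27 is also known to act in migration.

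The libraries held between 7154043 and 10089981 reads assigned to genes, and all 10 genes exceeded the mean of 10 normalized counts required for testing, as did 14126 genes in all. A normalized count is a read count divided by the size factor of its library. Dnmt1 itself fell from 2768 ± 244 to 2303 ± 94.0 normalized counts (log2 fold change -0.26, SE 0.07, adjusted p = 0.0218), a gene-level value that covers the floxed exons only in part and passed the threshold in 15 of 20 alternative analyses. Its call was lost without control replicate 1, Dnmt1 KO replicate 2 or Dnmt1 KO replicate 3 (-0.25 to -0.20), with quantile normalization (-0.15, adjusted p = 0.0901) and with scaling by total reads (-0.0039, adjusted p = 0.972). Sst was at 2978 ± 112 and 3284 ± 153 normalized counts (SD, n = 3) in control and Dnmt1 KO, with an adjusted p of 0.134. Its Dnmt1 KO libraries all lay above its control libraries, as in 18.6% of tested genes. Sst was called higher with quantile normalization (log2 fold change 0.24, adjusted p = 0.0114) and with scaling by total reads (0.40, adjusted p = 0.000537). Control replicate 1 stood apart from the other libraries on the second principal component, which held 13.7% of the variance. A simulation with the same depth and 200 changed genes recovered 43.1% of genes changed 1.5-fold, 74.2% of those changed 2-fold and 98.5% of those changed 4-fold. Many more genes were called in the data than were changed in the simulation, so these rates may not carry over to this test.

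Ccnd1, Ccnd2 and Cdk6 fell in the Dnmt1 KO libraries, none of the 10 genes rose, and 7 did not pass the test. Rb1 alone was higher at an unadjusted p under 0.05, and edgeR and DESeq2 also called 0 of the 10 genes higher and 3 lower. Across all 14126 tested genes, 11.6% were called lower and 7.64% higher (limma, adjusted p under 0.05). The median log2 fold change of the 10 genes was -0.36, against 0.02 for all tested genes, and it was -0.16 without control replicate 1. The same 3 genes had every Dnmt1 KO library below every control library, an arrangement found in 18.1% of tested genes. Rb1 alone had every Dnmt1 KO library above every control library, as 18.6% of tested genes had. The other 6 genes overlapped between the groups.

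**Figure D1:**
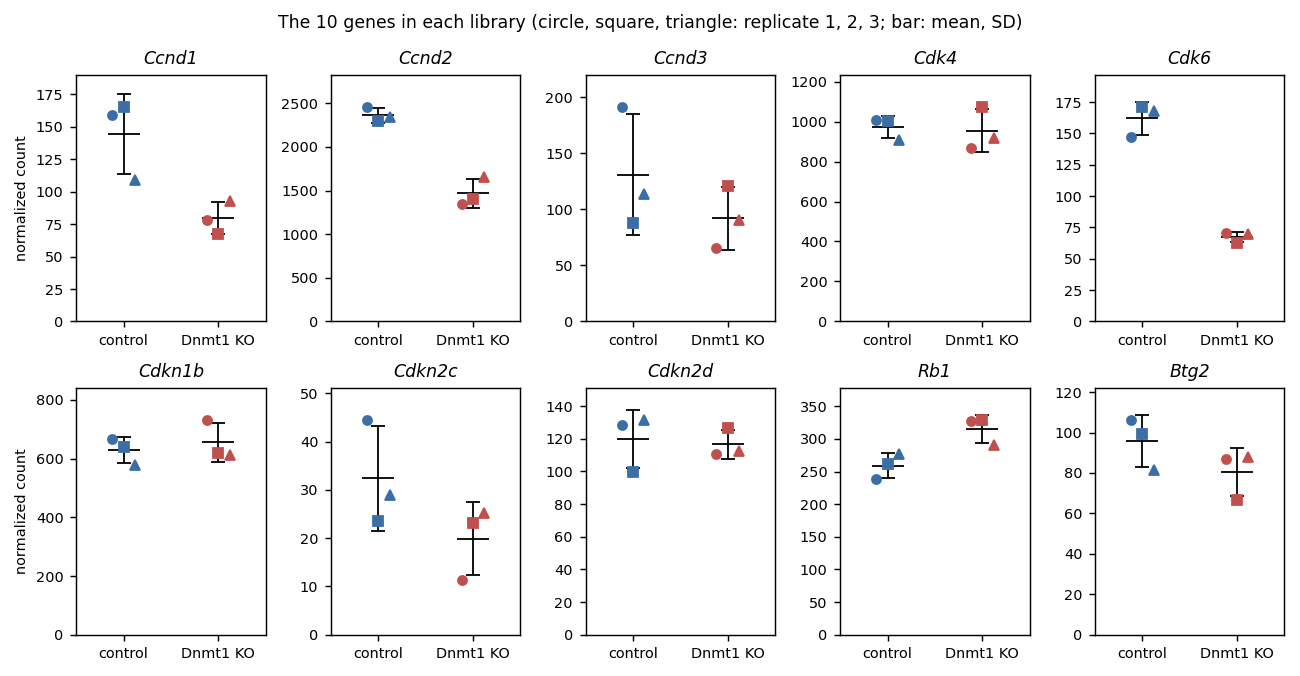
Normalized count of each of the 10 genes (vertical axis, from 0) in the 3 control (blue) and 3 Dnmt1 KO (red) libraries; symbols mark the replicate, the wide bar the mean and the whiskers the SD. Ccnd1, Ccnd2 and Cdk6 have no Dnmt1 KO library at the control level, Rb1 lies higher without overlap, and the remaining 6 genes overlap.

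Cdk4 and Cdk6 encode related kinases with the same cyclin partners, and in these cells 1 of them fell and the other was not called. The 250 bases upstream of their starts are shown for that reason, from RefSeq on build GRCm38.p6, with every CG dinucleotide in capitals, since CG is the site at which DNMT1 methylates DNA. Cdk4 is on the plus strand at chr10:127063285-127063534 and Cdk6 on the plus strand at chr5:3343643-3343892.
Cdk4: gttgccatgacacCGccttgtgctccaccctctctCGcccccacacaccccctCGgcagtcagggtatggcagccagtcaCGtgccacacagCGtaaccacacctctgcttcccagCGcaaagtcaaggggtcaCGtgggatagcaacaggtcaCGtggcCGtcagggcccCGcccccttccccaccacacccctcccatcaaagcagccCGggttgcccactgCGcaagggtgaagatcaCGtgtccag
Cdk6: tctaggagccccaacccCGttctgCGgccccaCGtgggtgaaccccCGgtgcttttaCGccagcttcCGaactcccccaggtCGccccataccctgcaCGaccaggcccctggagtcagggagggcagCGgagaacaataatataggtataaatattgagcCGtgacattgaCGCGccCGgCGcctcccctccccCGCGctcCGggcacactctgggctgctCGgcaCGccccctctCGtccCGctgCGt
The Cdk6 sequence held 22 CG dinucleotides and the Cdk4 sequence 13, against a median of 6 over 32851 promoters of the same length. On both strands, the E-box CACGTG, a motif looked for after the sequences had been read, occurred 4 times upstream of Cdk4 and 1 time upstream of Cdk6. It occurred in 6.02% of all promoters. The GC box GGGCGG occurred 1 time upstream of Cdk4 and was not found in the Cdk6 window, against 32.7% of all promoters. Promoter entries were matched by symbol for 7 of the 10 genes (not Ccnd1, Ccnd2 and Rb1). In the windows of those 7 genes, the E2F motif, searched as TTTCGCGC, TTTGGCGC, TTTCCCGC and TTTGCCGC, was not found, and 1.86% of all promoters held it. The cyclic AMP element TGACGTCA was found in the window of Btg2 alone, against 1.55% of all promoters. The windows of Cdkn1b and Btg2 held 28 and 27 CG dinucleotides. These are matches of letters, and methylation of these windows was not analysed here.

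Among the cyclins, Ccnd2 was by far the most abundant. Per kb of exon its level in control was 251 ± 9.16 normalized counts (SD, n = 3), against 30.2 ± 6.46 for Ccnd1 and 14.2 ± 5.82 for Ccnd3. Ccnd2 (ENSMUSG00000000184, GRCm39 chr6:127102125-127129156, minus strand) was at 2460, 2292 and 2340 normalized counts in the control libraries and at 1343, 1406 and 1652 in the Dnmt1 KO libraries. Every Dnmt1 KO library lay well below the lowest control library, and replicate 3 was the highest of the Dnmt1 KO libraries. The mean went from 2364 ± 86.2 to 1467 ± 164, a log2 fold change of -0.69 (SE 0.08, 95% interval -0.86 to -0.52, adjusted p = 4.23e-05).

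Ccnd1 (ENSMUSG00000070348, GRCm39 chr7:144483668-144493662, minus strand) is the cyclin most often tied to mitogen signals. It was at 159, 166 and 109 normalized counts in the control libraries and at 78.5, 67.7 and 92.5 in the Dnmt1 KO libraries. Control replicate 3 was the lowest control library and still exceeded the highest Dnmt1 KO library. The log2 fold change was -0.84 (SE 0.18, 95% interval -1.24 to -0.44, adjusted p = 0.00641). The annotated 3′ end of Ccnd1 overlaps that of LTO1 on the opposite strand, whose mean went from 100 to 144 normalized counts. The kit keeps strand, but no source used here says whether the counting used it, and reads of the shared stretch may have been assigned to either gene.

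Ccnd3, the third D-type cyclin, did not pass the test. It was at 191, 88.0 and 114 normalized counts in control and at 65.1, 121 and 90.3 in Dnmt1 KO. The groups overlapped, with control replicate 1 far above the other libraries, and the log2 fold change of -0.47 had a 95% interval of -1.05 to 0.11 (adjusted p = 0.249). Without control replicate 1 it was -0.16 and without Dnmt1 KO replicate 1 -0.25, while without control replicate 2 it was -0.72. A fall as large as those of Ccnd1 and Ccnd2 lies inside this interval.

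Although Ccnd1 and Ccnd2 fell, the shares of the 3 cyclins in their summed signal per kb overlapped between the groups. Ccnd2 made up 85.1 ± 2.40% of it in control and 85.4 ± 0.73% in Dnmt1 KO (SD, n = 3). Ccnd1 made up 10.2 ± 2.01% and 9.11 ± 0.98%, and Ccnd3 4.73 ± 1.66% and 5.47 ± 1.70%. Within a library the log2 ratio of Ccnd1 to Ccnd2 was lower by 0.16 in Dnmt1 KO, with p = 0.5 when all 20 assignments of the libraries were enumerated (exact permutation test, two-sided), which cannot give a p below 0.1.

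The kinases differed in their response. Cdk4 was the most abundant of the 10 genes per kb in both groups, at 283 ± 16.0 in control and 277 ± 31.1 in Dnmt1 KO. Cdk4 (ENSMUSG00000006728) was at 1008, 1003 and 910 normalized counts in control and at 868, 1074 and 919 in Dnmt1 KO. The groups overlapped throughout, with both the highest and the lowest value in Dnmt1 KO. The log2 fold change was -0.03 (SE 0.09, adjusted p = 0.827), and its 95% interval of -0.22 to 0.15 leaves out a fall of the size seen for Ccnd2.

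Cdk6 (ENSMUSG00000040274, GRCm39 chr5:3391485-3581008, plus strand) was at 147, 171 and 168 normalized counts in the control libraries and at 70.2, 62.9 and 69.6 in the Dnmt1 KO libraries. All Dnmt1 KO libraries were close together and below every control library. Its log2 fold change of -1.25 (SE 0.14, 95% interval -1.56 to -0.94, adjusted p = 4.42e-05) was the largest in size among the 10 genes, and its mean in Dnmt1 KO was 41.7% of that in control. These values rest on 65 to 181 reads per library.

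Of the summed per-kb signal of Cdk4 and Cdk6, Cdk6 held 3.36%, 3.91% and 4.22% in the control libraries and 1.89%, 1.38% and 1.77% in the Dnmt1 KO libraries. Without division by length the Cdk6 share was 12.7% to 15.6% in control and 5.53% to 7.48% in Dnmt1 KO, so its size depended on the scale. The groups did not overlap. The log2 ratio of Cdk6 to Cdk4 was lower by 1.23 in Dnmt1 KO, with p = 0.1 in the exact two-sided permutation test, the smallest value that 3 libraries against 3 allow. Cdk6 by itself already separated the groups, so this p adds no support beyond the fit of that gene.

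**Figure D2:**
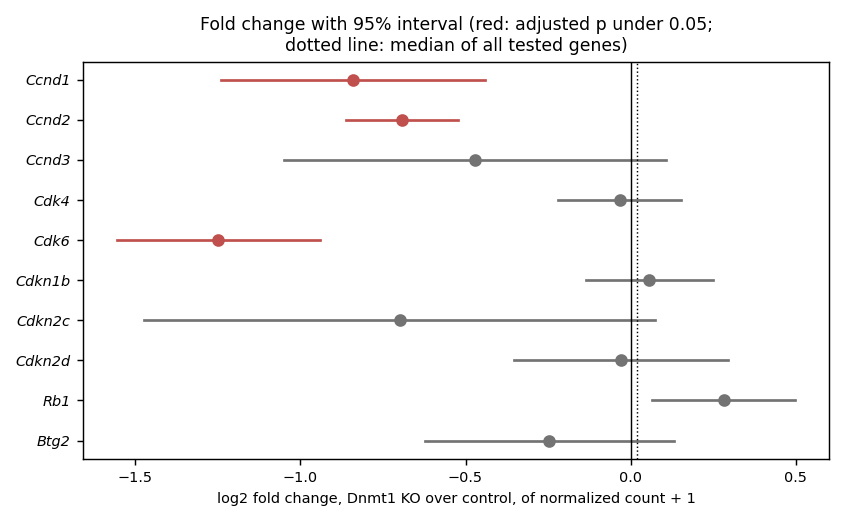
Log2 fold change of Dnmt1 KO over control for the 10 genes (points) with the 95% interval of the limma fit (lines), on the scale of log2(normalized count + 1); red marks an adjusted p under 0.05 and the dotted line the median of all tested genes, 0.02. Only the intervals of Ccnd1, Ccnd2 and Cdk6 are red, Rb1 has an interval above 0 without passing the adjusted threshold, and the interval of Cdkn2c is the widest.

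None of the 3 CDK inhibitors passed the test. Cdkn1b (ENSMUSG00000003031), which encodes p27, was the most abundant of them, at 668, 639 and 579 normalized counts in control and at 731, 620 and 614 in Dnmt1 KO. The groups overlapped, and the log2 fold change was 0.06 (SE 0.09, 95% interval -0.14 to 0.25, adjusted p = 0.703). Because p27 is regulated in large part through translation and breakdown of the protein, its transcript level is not a measure of the protein.

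Cdkn2d, encoding p19, was at 128, 99.3 and 131 normalized counts in control and at 110, 127 and 113 in Dnmt1 KO. Its Dnmt1 KO values lay inside the range of the control values, and the log2 fold change was -0.03 (95% interval -0.35 to 0.29, adjusted p = 0.918). Cdkn2c, encoding p18, was the least abundant of the 10 genes, at 44.4, 23.7 and 29.0 normalized counts in control and at 11.4, 23.2 and 25.2 in Dnmt1 KO. Dnmt1 KO replicate 1, with 11 reads, was the lowest and control replicate 1, with 36 reads, the highest, and the groups overlapped. Its log2 fold change of -0.70 had a 95% interval of -1.47 to 0.08 (adjusted p = 0.200), and was -0.36 without Dnmt1 KO replicate 1 and -0.45 without control replicate 1, so no difference was detectable at this depth.

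The retinoblastoma gene Rb1, the main target of cyclin D kinases, was at 238, 262 and 277 normalized counts in control and at 327, 329 and 290 in Dnmt1 KO. The lowest Dnmt1 KO library lay above the highest control library. The log2 fold change was 0.28 (SE 0.10, 95% interval 0.07 to 0.50), with an adjusted p of 0.0667 that missed the threshold. Rb1 overlaps Rcbtb2 on the opposite strand, whose mean was 704 normalized counts in control and 528 in Dnmt1 KO. Btg2, which encodes an antiproliferative factor and marks progenitors about to produce neurons, was at 106, 99.3 and 81.3 normalized counts in control and at 86.7, 66.8 and 88.1 in Dnmt1 KO. The groups overlapped, and the log2 fold change was -0.25 (95% interval -0.62 to 0.13, adjusted p = 0.360).

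Ranked by level per kb, control cells had Cdk4 first, then Ccnd2, Cdkn1b, Cdkn2d, Ccnd1, Rb1, Btg2, Ccnd3, Cdk6 and Cdkn2c. Neighbours whose libraries overlapped were Ccnd1 and Rb1, Btg2 and Ccnd3, and Ccnd3 and Cdk6. In Dnmt1 KO the order was the same except that Rb1, at 26.2 ± 1.82 per kb, came before Ccnd1, at 16.6 ± 2.60. Ccnd2 and Cdkn1b, which were separate in control at 251 and 138 per kb, overlapped in Dnmt1 KO, where they ranged from 143 to 176 and from 135 to 161. The ranking depends on the division by length. Without it Ccnd2 stood above Cdk4, at 2364 against 973 normalized counts in control and 1467 against 954 in Dnmt1 KO.

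The sum of the 3 cyclins per kb was 315, 288 and 284 in the control libraries and 166, 177 and 205 in the Dnmt1 KO libraries. The sum of Cdkn1b, Cdkn2c and Cdkn2d was 231, 204 and 211 in control and 229, 216 and 206 in Dnmt1 KO. The cyclin sums did not overlap between the groups and the inhibitor sums did. As a log2 ratio of cyclins to inhibitors, the libraries were at 0.45, 0.50 and 0.43 in control and at -0.46, -0.29 and -0.01 in Dnmt1 KO. The groups did not overlap, and Dnmt1 KO replicate 3 was nearest to control. Without division by length the ratios were 1.74, 1.74 and 1.79 in control and 0.80, 1.05 and 1.29 in Dnmt1 KO, so the difference was -0.71 on both scales while the side of 0 depended on the scale. Cdkn1c, described with the other CDK inhibitors, is not in these sums. Since Ccnd2 and Cdkn1b make up most of both sums, the ratio of these genes followed the same pattern, with a log2 difference of -0.75 and p = 0.1 in the exact permutation test. Ccnd2 by itself already separated the groups, so this p adds no support beyond the fit of that gene.

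**Figure D3:**
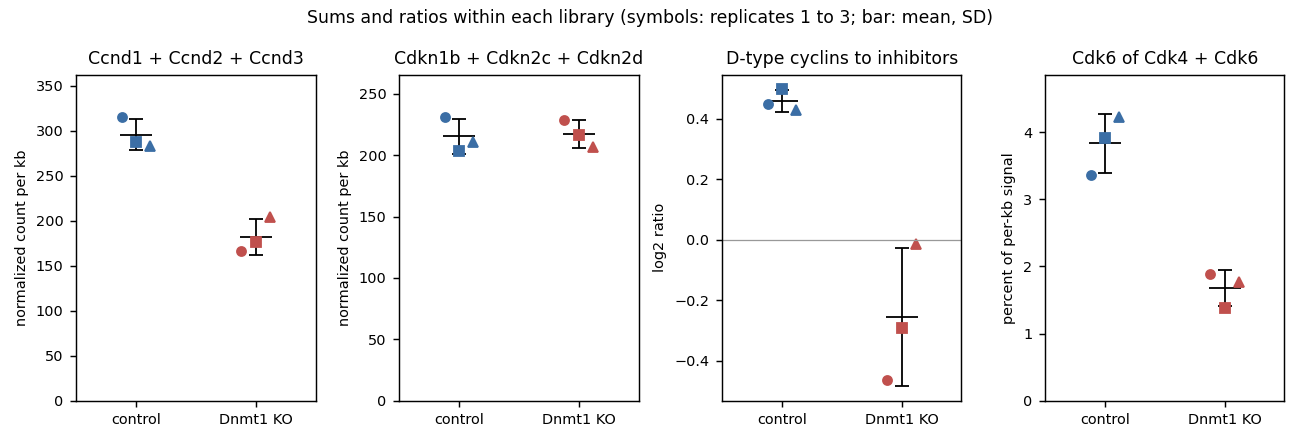
From left to right, for each control (blue) and Dnmt1 KO (red) library: the summed level of the 3 D-type cyclins per kb, the summed level of the 3 inhibitors per kb, the log2 ratio of these sums (its position relative to 0 depends on the division by length), and the percent of the per-kb signal of Cdk4 and Cdk6 that is Cdk6; wide bars are means and whiskers SD. Cyclin sums lie at 284 to 315 in control and 166 to 205 in Dnmt1 KO while inhibitor sums overlap, and the Cdk6 share is 3.36% to 4.22% in control and 1.38% to 1.89% in Dnmt1 KO.

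The calls of Ccnd1, Ccnd2 and Cdk6 held in all 20 alternative analyses. Their log2 fold changes ranged from -1.03 to -0.59, from -0.78 to -0.43 and from -1.32 to -0.99, and the largest adjusted p was 0.0353, for Ccnd1. The scale mattered for the genes that were not called. Dividing by total reads in place of the authors' size factors moved the median over all tested genes from 0.02 to 0.27 and turned the split of called genes from 39.7% higher to 82.6% higher. On that scale Cdkn1b (log2 fold change 0.32, adjusted p = 0.0153) and Rb1 (0.54, adjusted p = 0.00091) were called higher; relative to the median of that scale their values were 0.04 and 0.27. Cdk4, Cdkn2d and Btg2 took positive values there without a call.

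The genes that act around the D-type cyclins were grouped in 10 lists, described by their counts and median log2 fold changes beside the 0.02 of all tested genes. For the counts, the shares over all tested genes were 11.6% lower and 7.64% higher. The first lists lie downstream of the retinoblastoma protein. Of 12 pocket protein partners and E2F factors, 4 fell, none rose and 8 were not called, with a median of -0.28. In this list and in the lists of the next steps through mitosis, 0 genes were higher at an unadjusted p under 0.05, and edgeR and DESeq2 called 0 higher. E2f7 and E2f8, the atypical E2F factors that repress S-phase genes, fell with log2 fold changes of -1.06 (adjusted p = 0.000885) and -0.85 (adjusted p = 0.00715). Tfdp2, an E2F dimerization partner, fell by 0.43 on the log2 scale, a call lost with scaling by total reads (-0.17, adjusted p = 0.182).

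In the step that follows cyclin D, 3 of 5 tested genes of cyclin E, cyclin A and CDK2 fell and none rose (median -0.67). Cdk2, the kinase of this step, fell from 89.3 ± 8.50 to 44.2 ± 7.53 normalized counts (adjusted p = 0.00263), and Ccna2, cyclin A, from 263 ± 23.1 to 164 ± 17.9 (adjusted p = 0.00143). Ccne2, a cyclin E, had a log2 fold change of -0.95 and an adjusted p of 0.0407, a call that was lost when any of control replicate 2, control replicate 3, Dnmt1 KO replicate 2 or Dnmt1 KO replicate 3 was left out (-1.03 to -0.63). Quantile normalization (-0.78, adjusted p = 0.0793) and scaling by total reads (-0.70, adjusted p = 0.0721) also lost it. Of 8 subunits and partner factors of the DREAM and MuvB complexes, which repress or activate cell cycle genes, 2 fell, none rose and 6 were not called (median -0.22). Foxm1, a partner factor and not a subunit, fell with a log2 fold change of -0.88 (adjusted p = 0.00102). Lin54 had -0.43 with an adjusted p of 0.0387, which leaving out control replicate 1 or 3 or Dnmt1 KO replicate 1 or 2 removed (-0.41 to -0.34). DESeq2 (adjusted p = 0.0652) and limma-voom (adjusted p = 0.0601) did not call Lin54. Neither quantile normalization (adjusted p = 0.0535) nor scaling by total reads (-0.18, adjusted p = 0.311) kept its call. Rbbp4, a histone-binding subunit, was at 0.12 with an adjusted p of 0.273, and was called higher with scaling by total reads (0.38, adjusted p = 0.00145).

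Among 25 tested E2F target genes of S phase, 8 fell, none rose and 17 were not called (median -0.29), and 5 fell without Dnmt1 KO replicate 3. Uhrf1, which brings DNMT1 to newly replicated DNA, fell by 0.89 on the log2 scale from 591 ± 64.8 to 317 ± 13.1 normalized counts (adjusted p = 2.32e-05). Mcm5 and Mcm2, subunits of the replicative helicase, fell by 0.61 and 0.53. The call of Mcm2 was lost with scaling by total reads (-0.28, adjusted p = 0.0657). The list of G2 and mitosis genes moved most broadly, with 17 of 24 lower, none higher and a median of -0.55. Tpx2, a spindle assembly factor, fell from 969 ± 89.3 to 541 ± 10.0 normalized counts (adjusted p = 9.38e-06). Kif20a and Prc1, which act in cytokinesis, fell by 0.87 and 0.89 on the log2 scale. Scaled by total reads, 2 of the S-phase genes and 8 of the G2 and mitosis genes were still called lower.

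**Figure D4:**
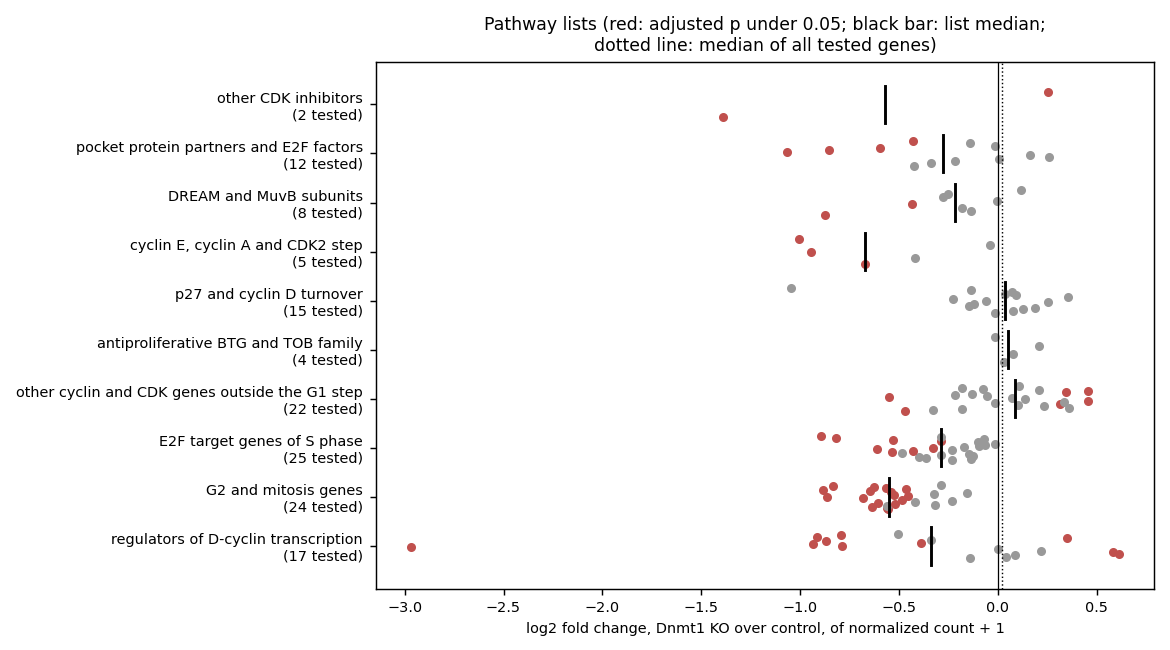
Log2 fold change of Dnmt1 KO over control for every tested gene of the 10 pathway lists (points; red marks an adjusted p under 0.05), with the list median as a black bar and the median of all tested genes, 0.02, as a dotted line. The G2 and mitosis list (median -0.55), the S-phase list (-0.29) and the cyclin E, cyclin A and CDK2 list (-0.67) lie wholly below 0. The turnover list and the BTG and TOB family have medians of 0.04 and 0.05 and no called gene.

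Genes for the breakdown of p27 and of D-type cyclins were not called in the limma fit of all tested genes. None of 15 passed (edgeR and DESeq2 on the recovered reads also called 0, and 2 had an unadjusted p under 0.05 in limma), and their median was 0.04. Fbxw8, an F-box protein reported to target cyclin D1, was at 0.35 (adjusted p = 0.0694) and was 1 of 2 genes called higher without control replicate 2 (0.49, adjusted p = 0.011). Fbxw7, the F-box protein for cyclin E, was at -0.23 (adjusted p = 0.0941) and Cul4a, a ligase scaffold, at 0.19 (adjusted p = 0.168). Fbxw8 was also called higher among protein-coding genes only (0.35, adjusted p = 0.0486). Scaling by total reads called Fbxw8 (0.61, adjusted p = 0.00208) and Cul4a (0.45, adjusted p = 0.00163) higher. Of 4 tested relatives of Btg2 none was called by limma, edgeR or DESeq2, and 0 had an unadjusted p under 0.05, with Tob1 at 0.21, Btg1 at 0.03 and Btg3 at 0.07 and adjusted p of 0.300, 0.833 and 0.890. Scaling by total reads called Tob1 (0.46, adjusted p = 0.0138) and Btg1 (0.29, adjusted p = 0.0111) higher.

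Of the other CDK inhibitors, 2 were tested, 1 rose and 1 fell (median -0.57). Cdkn1c, encoding p57, was at 1159 ± 97.0 normalized counts in control and 1381 ± 86.4 in Dnmt1 KO and had the highest per-kb level of all inhibitors measured, 538 in control and 641 in Dnmt1 KO. Its log2 fold change of 0.25 passed narrowly (adjusted p = 0.0374), and the call was lost without control replicate 3, Dnmt1 KO replicate 1 or Dnmt1 KO replicate 3 (0.19 to 0.24). Size factors from protein-coding genes also lost the call of Cdkn1c (0.22, adjusted p = 0.0686). Cdkn1a, the p53 target that encodes p21, was at 43.6 ± 26.5 in control and 15.4 ± 7.96 in Dnmt1 KO, a log2 fold change of -1.39 (adjusted p = 0.0383). Control replicate 1 carried much of that difference, and without it the value was -0.94 with an adjusted p of 0.155, while leaving out Dnmt1 KO replicate 1 or 2 also removed the call (-1.11 and -1.31). Cdkn1a was not called with limma-voom (-1.29, adjusted p = 0.0790) or with quantile normalization (-1.16, adjusted p = 0.0845). Cdkn2a, named after its values were seen, was at 0 reads in all 6 libraries, which allows up to 2.22 to 3.70 normalized counts per library.

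Of 17 tested regulators of D-type cyclin transcription, 7 fell and 3 rose (median -0.34). Among those that fell was Gli1, chosen after its values were seen, at 19.4 ± 5.12 normalized counts in control and 2.79 ± 4.02 in Dnmt1 KO. Gli1 passed the test filter through its control level. Notch1, a receptor that keeps progenitors undifferentiated, fell from 431 ± 34.8 to 229 ± 37.7 normalized counts (adjusted p = 0.000132). In the Hedgehog pathway the receptor gene Ptch1 fell by 0.79 (adjusted p = 0.000174) and the factor Gli3 by 0.94 (adjusted p = 0.000606) on the log2 scale. Those that rose were Mycn, Fos and Foxo1, chosen after their values were seen, with log2 fold changes of 0.35, 0.61 and 0.58, and the count of regulators called higher was 0 without Dnmt1 KO replicate 1 or 3 and 1 without any of the control libraries. Outside the G1 step, 4 of 22 other cyclin and CDK genes rose and 2 fell (median 0.09), beside 7.64% and 11.6% of all tested genes. Without Dnmt1 KO replicate 3 the counts were 2 and 1, and 1 gene was lower without control replicate 3 or Dnmt1 KO replicate 2. The 3 with the smallest p were Cdk5r1, the neuronal activator of Cdk5, at 0.46 (adjusted p = 0.000243), Ccnl2, a cyclin linked to splicing, at 0.45 (adjusted p = 0.00246), and Ccni at 0.31 (adjusted p = 0.0119). Ccni lost its call without Dnmt1 KO replicate 3 (0.28, adjusted p = 0.0701).

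Other marker genes moved with the same groups. Beside their counts stand the 11.6% of all tested genes called lower and the 7.64% called higher. In bulk samples, fewer cells of a type and less RNA per cell cannot be told apart. Of 14 radial glia and progenitor markers, 9 fell and 1 rose, and their sum was 10086 to 10293 normalized counts in control and 7080 to 7297 in Dnmt1 KO. Nes fell by 0.62 and Vim, the most abundant, by 0.38 on the log2 scale, and none of the list was at 0. With scaling by total reads the call of Vim was lost (-0.12, adjusted p = 0.127). Of 15 interneuron markers, 12 rose, with sums of 30765 to 33098 in control and 39127 to 40418 in Dnmt1 KO. Lhx6, a factor of interneurons from the medial ganglionic eminence and the most abundant of the list, rose by 0.33 on the log2 scale.

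Most genes listed as markers of regions outside the cortex were lower in Dnmt1 KO. Whether these genes are expressed only in those regions was not examined. Testing required a mean over both groups, so a gene near 0 in one group could be tested only through the other. For such genes the direction was set by the filter. Of 13 listed markers of thalamus, hypothalamus and preoptic area, 9 were tested and all of these fell. The whole list summed to 2651 to 2816 in control and 760 to 893 in Dnmt1 KO. Tcf7l2, of the thalamus, fell by 4.55 on the log2 scale. Otp, of the hypothalamus, chosen after its values were seen, was at 0 reads in the 3 Dnmt1 KO libraries, which allows up to 2.22 to 3.10 normalized counts per library. Of 8 tested striatal markers, 6 fell, with sums of 2531 to 2699 in control and 1093 to 1146 in Dnmt1 KO, and Meis2 fell by 1.17. The part of progenitor and regional content in the values of Ccnd1, Ccnd2 and Cdk6 was not tested.

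Of 12 postmitotic neuron markers, 3 rose and 4 fell, with sums of 50592 to 53340 in control and 53862 to 56878 in Dnmt1 KO. Nefl, a neurofilament, fell by 1.40, and Map2 was at -0.09 (adjusted p = 0.419). Markers of intermediate progenitors and excitatory neurons (1 of 11 higher, 3 lower) summed to 4931 to 5227 in control and 4961 to 5106 in Dnmt1 KO. Tbr1 fell by 0.41, and Bcl11b was at 0.04 (adjusted p = 0.708). Scaled by total reads, Tbr1 was not called (-0.15, adjusted p = 0.181) and Bcl11b was called higher (0.30, adjusted p = 0.00493). Markers of vessels, blood and microglia (1 of 15 tested lower, where 11.6% of all tested genes were) summed to 1185 to 1247 in control and 1084 to 1224 in Dnmt1 KO. Hbb-bt, a globin gene, was at -0.47 with an adjusted p of 0.038, a call kept only when Dnmt1 KO replicate 2 was the library left out (other values -0.51 to -0.33), and Hba-a2 was at 0.03 (adjusted p = 0.879).

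The 3 genes that fell were also set against the summed progenitor and proliferation lists of the same library. The log2 ratio of Cdk6 to the radial glia sum was lower by 0.76 in Dnmt1 KO, that to the S-phase sum by 0.94 and that to the G2 and mitosis sum by 0.68, and none of these overlapped between the groups. For Ccnd2 the differences were -0.19, -0.38 and -0.11, and the groups overlapped for the radial glia and the G2 and mitosis sums. For Ccnd1 they were -0.35, -0.53 and -0.27, and the groups overlapped for all 3 sums, with a wider spread among the control libraries. Cdk4 and Cdkn1b lay higher relative to every one of these sums, without overlap. The differences were 0.47 and 0.56 against the radial glia list, 0.28 and 0.37 against the S-phase list, and 0.55 and 0.64 against the G2 and mitosis list. All 3 sums were lower in Dnmt1 KO, so any gene that stayed level would lie higher relative to them. These ratios are descriptions and were given no test.

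**Figure D5:**
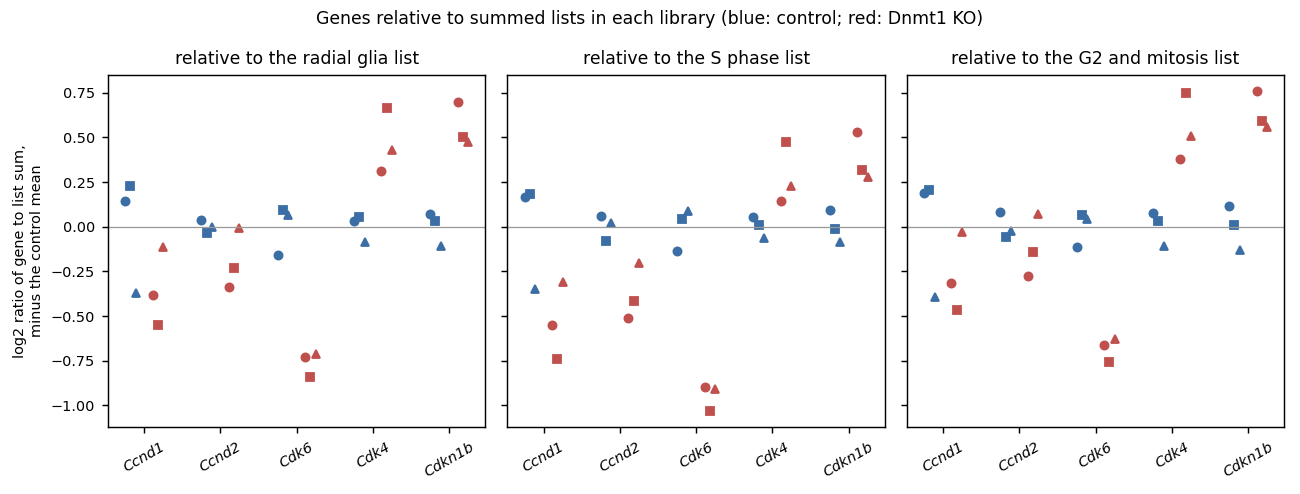
Log2 ratio of Ccnd1, Ccnd2, Cdk6, Cdk4 and Cdkn1b to the summed radial glia, S-phase, and G2 and mitosis lists in each library, with the mean of the control libraries set to 0; blue is control, red is Dnmt1 KO, and symbols mark the replicates. Cdk6 lies below control against all 3 sums (mean differences -0.76, -0.94 and -0.68), Ccnd1 overlaps control against all of them, and Cdk4 and Cdkn1b lie above control.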

How the data were processed

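Total RNA of sorted tdTomato-positive cells was prepared with a stranded low-input kit with ribosomal RNA depletion. In the submitters' processing notes stand the aligner STAR 2.7.11b with GRCm39, the quantifier Salmon 1.10.3, the trimmer Trim Galore 0.6.10, and DESeq2 1.42.1 under R 4.3.3, while the study's methods give other versions. The gene signal used was the authors' deposited table of normalized counts, gene counts divided by 1 size factor per library. All values (100%, tolerance 0.001) were whole multiples of 1 step per library, so reads were recovered by division (1 read was worth 0.740 to 1.23 normalized counts). Limits at 0 (3 reads) cover counting error only, while the 95% intervals come from the limma fit and carry the spread between libraries. Deposited tables of the authors' own comparison (fold changes, p-values, enrichment terms) were not used.

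The 14126 genes whose normalized counts averaged 10 or more were fitted as log2(normalized count + 1) with limma 3.58.1 (trend, group as the only term, two-sided), with Benjamini-Hochberg adjustment over all of them and a threshold of 0.05. The scale understates changes of low genes. Groups and replicate numbers came from the sample titles; libraries of a group differed beyond sampling noise (chi-square per gene 3.45 to 12.8), so none were merged. Alternatives varied the pseudocount (0.5, 5), the filter (a mean of 50, none), the scaling, the tool (voom, robust limma, edgeR 4.0.16 and DESeq2 1.42.0 on recovered reads), the gene set, a replicate block and each library. Fits were tested on simulated data of 14126 genes, in which 0.124% of unchanged genes were called. Positions and exon lengths came from GENCODE M39 on GRCm39, which had no record for 0.879% of listed genes. The exon length of a gene was that of all its annotated exons merged.

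Members and lists were chosen with earlier results of these data known. Named were all 10 genes, the 3 genes with the smallest p of each pathway list, the gene with the smallest p and the most abundant gene of each marker list, Dnmt1 and Sst; 1 gene that this rule names is not reported here. The text marks any other gene as picked with its values in view.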

Additional observations from a re-analysis of the deposited data

How the results depend on the processing

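Ccnd1, Ccnd2 and Cdk6 were called lower in each of the 20 alternatives, and the count of 10 genes called lower was 3 throughout. Scaling by total reads called 2 of them higher, and over all genes 5046 higher and 1062 lower, where 1079 and 1638 were called on the authors' size factors. With quantile normalization 51.5% and with protein-coding genes only 50.3% of called genes were higher, against 39.7%. Leaving out single libraries gave between 531 (without Dnmt1 KO replicate 3) and 977 genes higher, and 569 without Dnmt1 KO replicate 2.

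Scaling by total reads moved the list medians to -0.028 (pocket proteins and E2F), 0.036 (DREAM and MuvB), -0.42 (cyclin E, cyclin A and CDK2), 0.29 (turnover), 0.30 (BTG and TOB), 0.34 (other cyclin and CDK genes), -0.028 (S phase), -0.29 (G2 and mitosis) and -0.082 (regulators of D-cyclin transcription). Quantile normalization moved them to -0.16 (pocket proteins and E2F), -0.072 (DREAM and MuvB), 0.11 (turnover), 0.13 (BTG and TOB), -0.22 (S phase) and -0.50 (G2 and mitosis). Size factors from protein-coding genes, an alternative chosen after seeing the data, gave 0.00070 (turnover), 0.051 (other cyclin and CDK genes) and -0.37 (regulators), DESeq2 0.060 (other cyclin and CDK genes) and -0.36 (regulators), and voom -0.36 (regulators). A minimum mean of 50 gave 0.25 for the other CDK inhibitors, where only Cdkn1c was left, and 0.073 for turnover. Without 1 library the medians ranged from -0.32 to -0.14 (pocket proteins and E2F), 0.017 to 0.079 (turnover), -0.0034 to 0.11 (BTG and TOB), 0.014 to 0.083 (other cyclin and CDK genes), -0.32 to -0.23 (S phase) and -0.34 to -0.20 (regulators).

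Among single genes, directions turned only for those not called on the authors' size factors. Scaling by total reads gave 0.23 for Cdk4, 0.23 for Cdkn2d, 0.0088 for Btg2, 0.028 for Fbxw7 and 0.17 for Map2, none of them called. Quantile normalization gave 0.0073 for Cdkn2d and 0.27 for Map2, the latter called (adjusted p = 0.0169), and protein-coding size factors -0.0053 for Btg1 and -0.00045 for Hba-a2. Without 1 library the values ranged from -0.12 to 0.031 (Cdk4), -0.024 to 0.10 (Cdkn1b), -0.16 to 0.043 (Cdkn2d), -0.0042 to 0.070 (Btg1), -0.077 to 0.23 (Btg3), -0.0060 to 0.10 (Bcl11b) and -0.049 to 0.15 (Hba-a2). The difference in the Ccnd2 share of cyclin signal was -0.11 percentage points without division by length and -0.73 to 1.64 without 1 library, and that of the Ccnd3 share -0.23 to 1.65. The cause of these shifts was not tested.

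With the replicate number as a block, 945 genes were higher and 1583 lower, and the same 3 of the 10 genes were lower. Libraries with the same number did not deviate together (correlations -0.02, 0.06 and -0.07), so the numbers were not taken as pairs. The block also lost the calls of Cdkn1c, Cdkn1a and Ccne2.

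The depth limits Cdkn2c most, at 11 to 36 reads per library, and whether libraries of a genotype share embryos is not stated. Counts per gene do not separate transcripts, proteins or cell cycle phases, and reads of overlapping genes on opposite strands may be shared where Ccnd1 and Rb1 are annotated.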
